A study of Drosophila melanogaster with 14 samples.

Results

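Genes of ribosome biogenesis and of the RNA exosome were followed in type II neural stem cells (NSCs) of the Drosophila larval brain, the neuroblasts that bud off intermediate neural progenitors. A list of 36 genes was looked up by symbol in a count table of 17868 genes, and 35 of the 36 had a row. Of these 35, 24 act in ribosome biogenesis and 9 belong to the exosome or assist it. The other 2 have another annotated role: Rrp1 is recombination repair protein 1, an AP endonuclease of DNA repair and not the yeast ribosome factor of that name, and viaf encodes a phosducin-like protein. The listed gene without a row was Nol12.

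Ribosomes begin in the nucleolus, where RNA polymerase I transcribes the rRNA precursor. Small nucleolar ribonucleoproteins (snoRNPs) of the box C/D and box H/ACA types modify that precursor, and assembly factors and GTPases fold and cut it into the large and small subunits. The RNA exosome is a barrel of ring and cap proteins that passes RNA to attached nucleases, which trim rRNA precursors and remove faulty RNA. Neuroblasts have large nucleoli and regrow between divisions, and in fly brains both nucleolar size and growth fall as their daughters differentiate.

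The libraries held polyadenylated RNA from 3 experiments. GAF RNAi (3 libraries) targeted Trl, the gene of GAGA factor, which binds GA-rich DNA, and was set against 3 control libraries. HDAC1 RNAi (2 libraries) targeted a histone deacetylase and was set against 2 controls. Osa overexpression (2 libraries) raised a subunit of a SWI/SNF chromatin remodelling complex and was set against 2 controls. All 3 control sets have the genotype WT in the labels. The driver line, the RNAi lines, sex and larval age are not stated in the labels. The experiments asked how these chromatin proteins act in neural development. Nothing in the labels says whether replicates came from separate animals, so p-values reflect only library-to-library spread, which may be technical.

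Total counts ranged from 31788351 to 51505597 per library. Trl was not called in libraries labelled GAF RNAi (log2 fold change −0.08 ± 0.25, edgeR adjusted p = 0.843), HDAC1 stood at 59.7 and 34.8 CPM (counts scaled to a common library size) in HDAC1 RNAi against 70.9 and 79.2 CPM in its controls (edgeR adjusted p = 0.576), and osa rose under overexpression (0.99 ± 0.13, edgeR adjusted p = 0.0029). An Osa knockdown is named in the series' design text, whereas the labels and the osa counts are of an overexpression. The pair of HDAC1 RNAi libraries lay far apart: their log2 CPM correlated at 0.926, against 0.976 to 0.987 in all other replicate pairs. The genes used as type II NSC markers were dpn, pnt, btd, klu, mira, wor and grh, and whether they mark type II NSCs alone was not tested. These markers were detected in every group, with 7 of 7 tested in each experiment. Their summed level was 1250 to 1420 CPM in GAF RNAi against 1290 to 1510 CPM in its controls, 363 to 496 CPM in HDAC1 RNAi against 1240 to 1260 CPM, and 1060 CPM in both Osa overexpression libraries against 1650 to 1810 CPM.

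CPM are scaled by TMM within an experiment, and "called" means a Benjamini-Hochberg adjusted p under 0.05 over all genes tested in that experiment with edgeR's quasi-likelihood test. All 35 genes passed the expression filter in all 3 experiments. Per length, as RPKM (CPM per kilobase of exon), the H/ACA protein gene NHP2 had the highest level in each control set. It averaged 1028 ± 136 RPKM in GAF controls (SD, n = 3), 2445 ± 165 RPKM in HDAC1 controls and 775 ± 0.667 RPKM in Osa controls (SD, n = 2 each). Nop56 came next in all 3, at 436 ± 66.4, 491 ± 106 and 537 ± 12.9 RPKM. The exosome was uneven: in GAF controls the cap gene Csl4 averaged 193 ± 11 RPKM, whereas the nuclease and helicase genes Dis3, Mtr4 and Rrp6 averaged 12.3 ± 4.9, 10.6 ± 3.66 and 9.23 ± 4.93 RPKM. In that set the 3 enzymes lay within their spread of each other. In HDAC1 controls they were ordered, with Dis3 at 11.5 ± 0.364, Mtr4 at 8.84 ± 0.324 and Rrp6 at 4.02 ± 0.712 RPKM. The lowest member in GAF and Osa controls was l(1)G0020, which encodes the rRNA acetyltransferase, at 2.69 ± 1.31 and 9.31 ± 2.47 RPKM. In HDAC1 controls it averaged 6.56 ± 0.679 RPKM and Rrp6 was lowest. Each experiment is its own set of libraries, so the experiment and the library set cannot be told apart when levels are compared between control sets.

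In GAF RNAi, 25 of the 35 genes fell and 0 rose. Over all 9055 genes tested, 15.9% were called lower and 12.5% higher. The median log2 fold change of the 35 was −0.64, against 0.002 over all genes, and 34 of the 35 values were negative. The groups did not overlap for 25 genes that were lower and 1 that was higher, against 22.2% and 22% of all genes. The falls included genes of each ribosome and exosome role: 19 of the 24 ribosome biogenesis genes and 6 of the 9 exosome genes. In these bulk samples, fewer cells with high levels and less RNA per cell cannot be told apart. Where all 14 libraries shared 1 estimate of the spread, 13 of the 35 were called lower and 0 higher. Over all 11181 genes of that fit, 6.77% were lower and 6.21% higher.

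**Figure D1:**
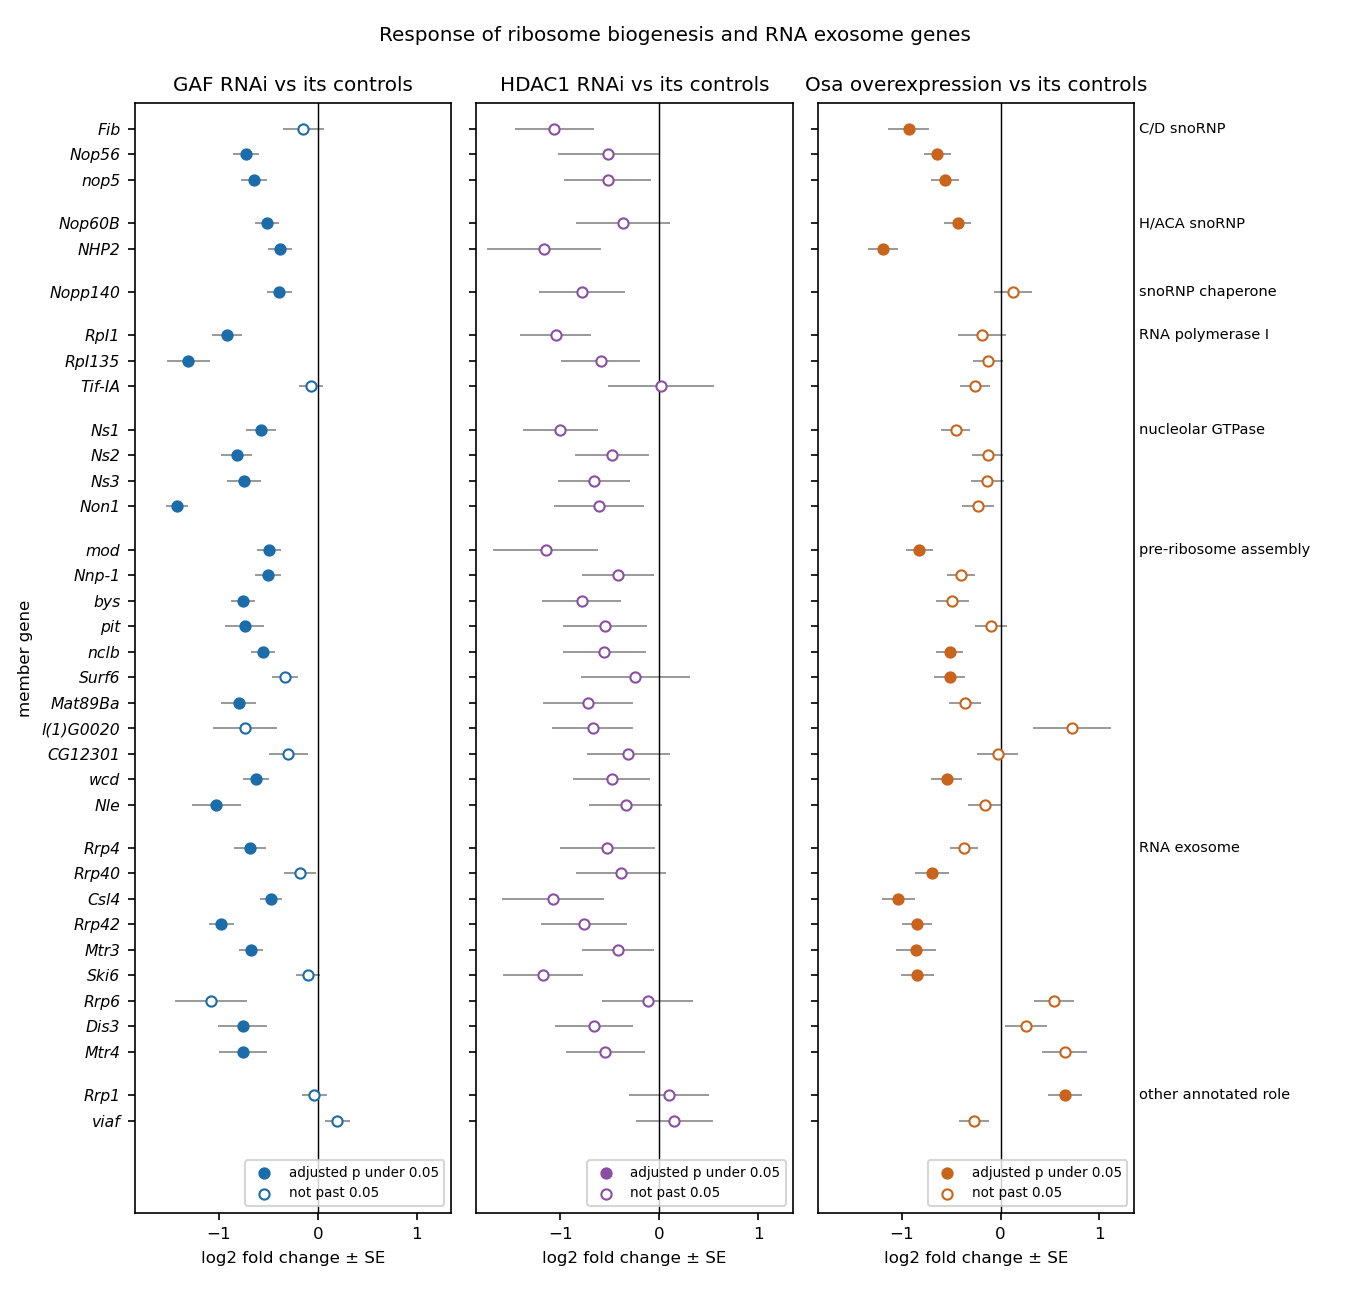
Log2 fold change ± SE of the 35 member genes (rows, grouped by role) in GAF RNAi, HDAC1 RNAi and Osa overexpression, each against its own controls, with filled points for genes called by edgeR. In GAF RNAi 25 genes were lower, in HDAC1 RNAi 0 were called, and in Osa overexpression 14 were lower and 1 was higher.

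The GTPase genes held the largest fall. Non1 encodes the fly homolog of Nog1, a nucleolar GTPase of large-subunit maturation (FBgn0028473, chromosome 2R from 9396265 to 9398734, minus strand, dm6). It stood at 205, 203 and 218 CPM in GAF RNAi against 578, 511 and 592 CPM in controls. The 3 RNAi libraries lay close together and all below every control, a log2 fold change of −1.43 ± 0.11 (edgeR adjusted p = 2.16e-06). The other GTPases of the list belong to the nucleostemin family, and all 3 fell. Ns2 stood at 49.5, 43.7 and 43.8 CPM against 71.4, 69.5 and 101 CPM (−0.82 ± 0.16, edgeR adjusted p = 0.00213). Ns3, a relative of the cytoplasmic factor Lsg1, stood at 30.2, 29.6 and 24.5 CPM in RNAi against 38.1, 45.3 and 57.8 CPM in controls. Ns1, nucleostemin itself, had the smallest fall of the family (−0.57 ± 0.15).

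The core subunits of RNA polymerase I fell, while its initiation factor was not called. RpI135, the second largest subunit, was at 28.4, 30.8 and 29.3 CPM in GAF RNAi against 46.6, 79.1 and 93.6 CPM in controls (−1.31 ± 0.21, edgeR adjusted p = 0.00121). The RNAi libraries lay close together and the controls spread widely, without overlap. RpI1, the largest subunit, was at 31.3, 44.1 and 36.9 CPM against 61.6, 74 and 77 CPM (−0.92 ± 0.16, edgeR adjusted p = 0.000944). Tif-IA, the homolog of the yeast initiation factor Rrn3, stood at 492, 425 and 543 CPM in RNAi against 557, 491 and 484 CPM in controls. Its groups overlapped (−0.07 ± 0.12, edgeR adjusted p = 0.713).

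Of the 6 snoRNP genes 5 fell in GAF RNAi. Nop56, a core box C/D protein, was at 438, 486 and 456 CPM against 633, 795 and 857 CPM (−0.73 ± 0.13, edgeR adjusted p = 0.00128), and nop5, the homolog of yeast Nop58, at 91.8, 87.3 and 82.7 CPM against 115, 146 and 147 CPM. The methyltransferase of the same particle, Fib (fibrillarin), was the exception. It stood at 21.6, 31.3 and 21.7 CPM in RNAi against 35.6, 24.3 and 22.7 CPM in controls, so that its groups overlapped (−0.15 ± 0.21, edgeR adjusted p = 0.639). The pseudouridine synthase gene Nop60B (dyskerin) was at 136, 137 and 118 CPM against 171, 192 and 195 CPM. It hosts snoRNA genes, and 15.3% of its exonic bases overlap them on the same strand. NHP2, at 587, 618 and 640 CPM against 921, 771 and 716 CPM, and the snoRNP chaperone Nopp140, at 55, 53.4 and 52.7 CPM against 61.1, 72.4 and 77.3 CPM, had falls near −0.38 and −0.39. The calls of NHP2 and Nopp140 held under 9 and 5 of 14 other settings, those of Nop56, nop5, RpI1, RpI135, Ns2, Ns3 and Non1 under all 14. Ns1 held under 9.

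Pre-ribosome assembly genes fell for 8 of 11. Nle (Notchless), a large-subunit factor, was lowest in fold, with 11.1, 14.2 and 10.8 CPM in GAF RNAi against 18.5, 19.5 and 35.4 CPM in controls (−1.03 ± 0.25, edgeR adjusted p = 0.00876). The small-subunit factors Mat89Ba (59.7, 51.7 and 61.5 CPM against 71.4, 118 and 112 CPM) and bys (49.8, 52.4 and 49.2 CPM against 78, 84.7 and 92.9 CPM) fell by 0.8 and 0.76 on the log2 scale. In both, no RNAi library reached the lowest control. The DEAD-box helicase gene pit stood at 19.9, 23.3 and 23.6 CPM against 26.1, 41.9 and 43.6 CPM. Its call held under 10 of 14 other settings. The other 4 called genes were wcd of the U3 snoRNP (−0.63), nclb, a Pwp1 homolog (−0.56), Nnp-1, the homolog of the yeast ribosome factor Rrp1 (−0.5), and the nucleolin-like mod (−0.5). The calls of Nnp-1 and mod held under 11 of the 14. Surf6 (−0.33 ± 0.13), l(1)G0020 (−0.74 ± 0.32) and CG12301 (−0.3 ± 0.2) were not called. Without control replicate 1, which lay below the control mean for 29 of 35 members, Surf6, l(1)G0020 and Rrp6 passed too. In that fit 28 of the 35 were called lower and 0 higher, with 20.5% of all genes lower and 15.3% higher.

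The exosome fell in its cap, its ring and its enzymes in GAF RNAi, with 2 of 3 called in each. The ring gene Rrp42 (FBgn0034065, chromosome 2R from 16014908 to 16016050, plus strand) was at 38.8, 48.3 and 44 CPM against 82.5, 91.2 and 83.8 CPM, the smallest p of the complex (−0.97 ± 0.13, edgeR adjusted p = 0.000177). Mtr3, also of the ring, was at 49.9, 52.8 and 53.7 CPM against 74.8, 90.2 and 84.9 CPM, while the third ring gene Ski6, the Rrp41 homolog, stood at 115, 115 and 118 CPM against 131, 134 and 107 CPM (−0.1 ± 0.12). Of the cap, Rrp4 was at 54.8, 39.1 and 42.3 CPM against 68.4, 85.8 and 64.6 CPM and Csl4 at 129, 128 and 134 CPM against 189, 186 and 169 CPM. Both fell, with no overlap. Rrp40, the remaining cap gene, was not called (−0.18 ± 0.16). Reads of Rrp40 are uncertain, because 35.1% of its exonic bases overlap the antisense gene Eno and the library kit does not mark strand.

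The enzymes of the exosome rested on unequal controls. Rrp6, the nuclear exoribonuclease, stood at 13.2, 16.5 and 12.7 CPM in GAF RNAi against 15.4, 27.2 and 47 CPM in controls, and was not called by edgeR (−1.08 ± 0.36, edgeR adjusted p = 0.0566). It was called by DESeq2 and limma-voom, with the replicate block, with a length term and without control replicate 1 (−1.42), and its adjusted p ran from 0.000905 to 0.171 over 14 other settings. The catalytic subunit Dis3 was at 24.5, 28.7 and 24.8 CPM against 27.3, 42.5 and 62.3 CPM (−0.76 ± 0.25, edgeR adjusted p = 0.0436). The helicase Mtr4, which feeds RNA to the nuclear exosome, was at 18.7, 28.4 and 20.3 CPM against 28.8, 32.1 and 52.9 CPM (−0.75 ± 0.24, edgeR adjusted p = 0.0362). In all 3, control replicate 3 was the highest library. Without it, Dis3 and Mtr4 stood at −0.43 and −0.44 and were not called (edgeR adjusted p = 0.169 and 0.159); over all 14 other settings the adjusted p ran from 0.000832 to 0.169 for Dis3 and from 0.0039 to 0.159 for Mtr4, with the calls kept under 6 and 10 of them.

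Of the type II NSC markers, 2 of 7 were called lower and 0 higher in GAF RNAi, with a median log2 fold change of −0.21. Markers of other cells moved in the same GAF comparison. Neuron markers were called higher for 7 of 7, with a summed level of 162 to 270 CPM in GAF RNAi against 42 to 71.4 CPM in controls, and intermediate progenitor markers for 6 of 6, at 161 to 206 CPM against 59.3 to 94.3 CPM. No neuron or progenitor marker was at 0 in either group. Their part in the fall of the ribosome genes was not tested. Blood cell, fat body and muscle markers each summed to at most 31.7 CPM in any library of the series. In GAF RNAi 1 of 1 blood cell, 1 of 1 fat body and 1 of 2 muscle markers tested were called higher. Fat body markers there summed to 25.4 to 31.7 CPM against 12.6 to 20.2 CPM in controls. Glia markers summed to 142 to 168 CPM against 598 to 701 CPM, and nrv2, most of the sum in controls, averaged 45.9 CPM in RNAi against 598 CPM, with repo and Eaat1 called higher and nrv2 lower. Rrp1 and viaf, the pair with other roles, were not called. Rrp1 stood at 113, 97 and 87.6 CPM in RNAi against 97.8, 105 and 101 CPM in controls, and viaf at 64.5, 61.8 and 59.3 CPM against 50.6, 57.5 and 53.6 CPM.

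**Figure D2:**
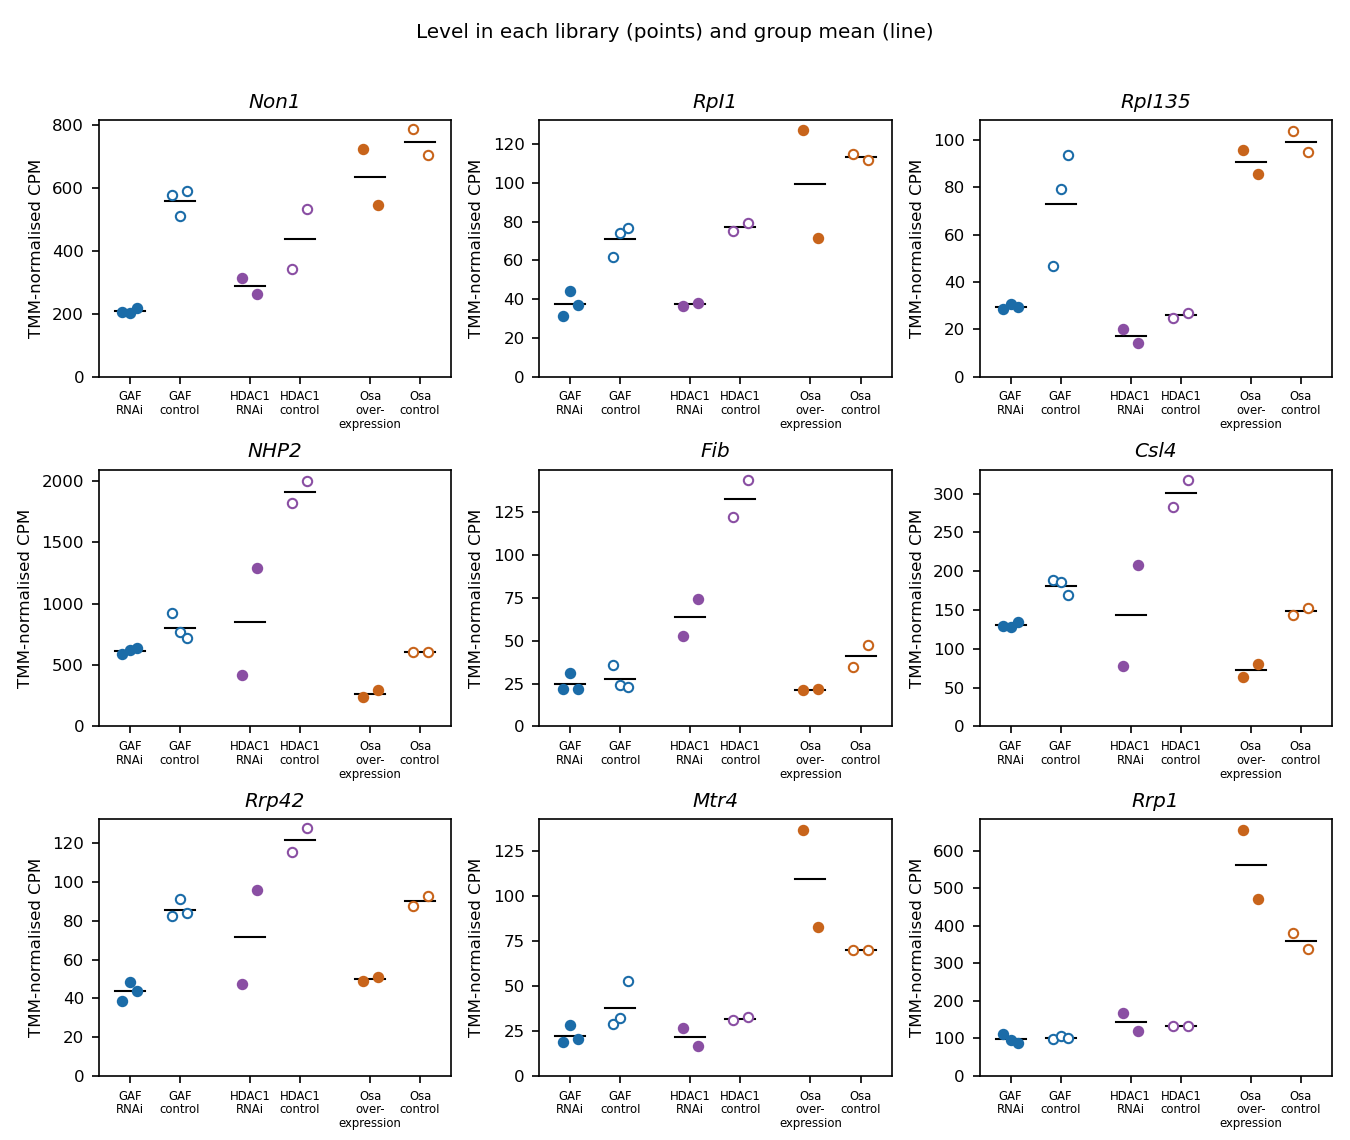
TMM-normalised CPM of 9 members in each of the 14 libraries (points, filled for RNAi or overexpression and open for the controls beside them; lines are group means). Non1 lies at 203 to 218 CPM in GAF RNAi and 511 to 592 CPM in its controls, and NHP2 at 237 and 294 CPM in Osa overexpression and 606 and 605 CPM in its controls.

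In HDAC1 RNAi, 0 of the 35 genes were called in either direction by edgeR, DESeq2 or limma-voom. At an unadjusted p under 0.05 in edgeR, 4 were lower and 0 higher, and the share of all genes at that threshold was not computed. Over all 10299 genes tested, edgeR called 0.0971% lower and 0% higher by adjusted p. The values themselves lay low, with a median of −0.55 against 0.06 over all genes and 32 of 35 negative. In 24 of the 35 both RNAi libraries were below both controls and in 0 both were above, against 20.5% and 22.6% of all genes. Most members thus had lower values, and no single member passed the test.

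The RNAi libraries differed in which members were low. RpI1 was low in both, at 36.7 and 38 CPM in HDAC1 RNAi against 75.2 and 79.4 CPM in controls (−1.05 ± 0.36, edgeR adjusted p = 0.276), and so was Fib, at 53 and 74.5 CPM against 122 and 144 CPM. Ski6 was at 61.6 and 84.5 CPM against 159 and 172 CPM, and Ns1 at 44.7 and 29 CPM against 67.6 and 79.7 CPM. These 4 are the members with an unadjusted p under 0.05. NHP2 was at 416 and 1288 CPM against 1818 and 2001 CPM, and Csl4 at 77.7 and 208 CPM against 283 and 318 CPM, so that replicate 1 was much the lower. For mod the order was the other way, with 237 and 83.9 CPM against 333 and 378 CPM. Tif-IA lay on both sides of its controls, with 78.5 and 20.2 CPM against 53.3 and 44 CPM.

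Leaving out 1 of the RNAi libraries made calls appear, on the assumption that the remaining one varies like the controls. Without replicate 1, 15 members were lower, where 6.75% of all genes were called lower and 7.63% higher. Without replicate 2, 19 were lower and 1 was higher, where 15.3% of all genes were lower and 16.8% higher. The genes called lower in both cases were 6: Fib, NHP2, RpI1, Ns1, mod and Ski6. Tif-IA was called in opposite directions, at −1.24 without replicate 1 and 0.7 without replicate 2. Beside these values, NSC markers summed to the lower levels given above, while neuron markers summed to 603 to 978 CPM in HDAC1 RNAi against 257 to 335 CPM in controls and progenitor markers to 185 to 476 CPM against 87.8 to 142 CPM, with 0 of 7, 0 of 7 and 0 of 6 called and none at 0. Glia markers summed to 223 to 571 CPM in HDAC1 RNAi against 200 to 308 CPM, with 0 of 6 called. The part of these markers was not tested.

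Under Osa overexpression 14 of the 35 genes fell and 1 rose. Over all 9156 genes tested, 12.2% were called lower and 8.86% higher. The median of the 35 was −0.37, against 0.05 over all genes, with 29 negative. Both overexpression libraries were below both controls for 21 members and above them for 3, against 32.1% and 33.7% of all genes. The falls were of the 5 core snoRNP proteins among the members, 4 pre-ribosome factors and 5 exosome genes. Of RNA polymerase I genes 0 of 3 were called, and of GTPase genes 0 of 4. Without overexpression replicate 1 or 2 the lower calls were 16 or 19 (10.7% or 18.8% of all genes) and the higher calls 0 or 6 (5.96% or 17.7% of all genes). Without control replicate 1 or 2 they were 4 and 0 in both cases, where 3.63% or 3.86% of all genes were lower and 1.48% or 2.06% higher. With all 14 libraries in 1 fit 2 were lower and 0 higher, with 2.73% and 0.438% of all genes. Scaling by library size alone moved the median of all genes to 0.32 and gave 5 lower and 3 higher (5.88% and 21.4% of all genes), with the members' median at −0.42 relative to all genes under both scalings.

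The snoRNP proteins held the largest fall. NHP2 (FBgn0029148, chromosome 3L from 14801328 to 14802168, minus strand) was at 237 and 294 CPM under Osa overexpression against 606 and 605 CPM in controls (−1.19 ± 0.15, edgeR adjusted p = 0.00212). Fib, which had not been called in GAF RNAi, was at 21.3 and 21.7 CPM against 34.5 and 47.4 CPM (−0.93 ± 0.21, edgeR adjusted p = 0.0148). Nop56 was at 577 and 625 CPM against 953 and 921 CPM, nop5 at 175 and 190 CPM against 249 and 290 CPM, and Nop60B at 282 and 251 CPM against 350 and 370 CPM. The adjusted p of Nop56, nop5 and Nop60B were 0.0116, 0.0228 and 0.0482 in edgeR. Nop60B was not called by limma-voom or with the replicate block. Scaled by library size alone, only NHP2 of the 5 was called, and with all 14 libraries in 1 fit none was. In none of the 5 did the groups overlap. The chaperone Nopp140 did not follow them, at 163 and 110 CPM against 130 and 122 CPM (0.12 ± 0.19).

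Among assembly factors, mod fell furthest, to 611 and 692 CPM under overexpression against 1186 and 1120 CPM in controls (−0.82 ± 0.14, edgeR adjusted p = 0.00562). The falls of wcd (−0.55), nclb (−0.52) and Surf6 (−0.52) were smaller, with adjusted p of 0.0334, 0.0251 and 0.044 in edgeR. RNA polymerase I genes were not called: RpI135 was at 95.6 and 85.8 CPM against 104 and 94.7 CPM (−0.13 ± 0.15), and RpI1 at 128 and 71.3 CPM against 115 and 112 CPM (−0.19 ± 0.24), its replicates on either side of the controls. Non1 was at 726 and 545 CPM against 787 and 706 CPM (−0.23 ± 0.16, edgeR adjusted p = 0.335). Ns1, at 137 and 126 CPM against 194 and 166 CPM, came nearest to a call among the GTPases (edgeR adjusted p = 0.0524). Scaled by library size alone, the values of 10 members turned positive, those of the 3 polymerase genes, Ns2, Ns3 and Non1 among them.

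Exosome values under Osa overexpression included calls for lower barrel genes and none for enzyme genes, a difference that was not tested. Of the 6 cap and ring genes 5 fell, with a median of −0.85 over the 6, while all 3 enzyme genes had positive values (0.26 to 0.65) and none was called. With a length term in the fit, Rrp42, Mtr3, Ski6 and Rrp40 were not called and the value of Dis3 was negative. Csl4 was at 63.9 and 80.8 CPM against 144 and 152 CPM (−1.03 ± 0.16, edgeR adjusted p = 0.00488), Rrp42 at 49.2 and 51 CPM against 87.7 and 92.8 CPM, and Ski6 at 48.4 and 60 CPM against 99.8 and 94.9 CPM. Mtr3 was at 41.1 and 60.9 CPM against 91.4 and 93.1 CPM and Rrp40 at 32.5 and 32.4 CPM against 49.4 and 55.6 CPM. Both have antisense neighbours, which for Mtr3 cover 7.98% of its exonic bases. Mtr4 was at 137 and 82.7 CPM against 70.1 and 69.9 CPM (0.65 ± 0.23, edgeR adjusted p = 0.072) and Rrp6 at 83.4 and 57.2 CPM against 51.8 and 44.6 CPM (0.54 ± 0.2, edgeR adjusted p = 0.0825), with no overlap in either. The single rise in the list was Rrp1, the DNA repair gene, at 655 and 471 CPM against 380 and 337 CPM (0.65 ± 0.17, edgeR adjusted p = 0.028).

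Beside the Osa result, progenitor markers were called higher for 5 of 6, summing to 759 to 1030 CPM under overexpression against 254 to 298 CPM in controls, and neuron markers for 3 of 7, at 1180 to 1330 CPM against 729 to 983 CPM. Of NSC markers 3 of 7 were lower and 1 was higher. Glia markers summed to 606 to 677 CPM under overexpression against 438 to 554 CPM in controls, with 1 of 6 called higher. No marker of these 4 lists was at 0, and their part in the falls was not tested.

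Transcript length moved with the Osa response. Summed exon length ran from 781 bases in NHP2 to 5078 bases in RpI1. Over the 35 members the log2 fold change under Osa overexpression rank-correlated with exon length at 0.749, and over 9110 genes at 0.415 (Spearman, a description across genes that share libraries). By length, the median member stood at −0.94 under 1 kb (4 genes), −0.6 from 1 to 1.5 kb (6), −0.47 from 1.5 to 2.5 kb (12) and 0.05 from 2.5 to 5 kb (12). All genes of those lengths had medians of −0.48, −0.28, 0.04 and 0.43, so that in each of the 4 bins the members' median lay below that of all genes. Among exosome genes, the cap and ring genes are 940 to 1253 bases long and the enzyme genes 3233 to 3588. Of the enzyme genes, Rrp6 (0.54) and Mtr4 (0.65) lay above the 0.43 of all genes from 2.5 to 5 kb, and Dis3 (0.26) below it. The part of length in the exosome values was not tested. In single libraries the rank correlation of exon length with the deviation from the control mean was 0.487 and 0.359 under Osa overexpression, against 0.033 and −0.033 in its controls, and 0.424 and −0.08 in HDAC1 RNAi, against 0.134 and −0.134. GAF RNAi gave −0.045, 0.018 and −0.104, against −0.043, −0.156 and 0.205 in its controls. With a length term in the Osa fit, an alternative chosen after the trend was seen, 8 members were lower and 0 higher. Over all genes, 5.85% were lower and 2.57% higher with the term, against 12.2% and 8.86% without it. Nop56, nop5, Nop60B, NHP2, mod and Csl4 kept their calls, and Nnp-1 and Mat89Ba gained one. The exosome values then drew together, with Csl4 at −0.63, Rrp42 at −0.45 and Ski6 at −0.46 and with Rrp6 at 0.17, Dis3 at −0.14 and Mtr4 at 0.25. Rrp1 was no longer called (edgeR adjusted p = 0.102, where its 12 alternatives together gave 0.000136 to 0.173). With the same term 23 members were lower in GAF RNAi, with 15.4% of all genes lower and 12.9% higher. There Nopp140, Ns1 and mod lost their calls and Rrp6 gained one. In HDAC1 RNAi 0 members were called with the term, and 0% of all genes in either direction. The members' own rank correlation with length was −0.414 in GAF RNAi and 0.085 in HDAC1 RNAi, against −0.054 and 0.206 over all genes. By the same bins, all genes in GAF RNAi had medians of 0.25, −0.03, −0.18 and −0.07, and of 0.19 over 5 kb. The members' medians there were −0.43, −0.26, −0.69 and −0.74, and −0.92 for the 1 member over 5 kb. In each bin the members' median lay below that of all genes.

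**Figure D3:**
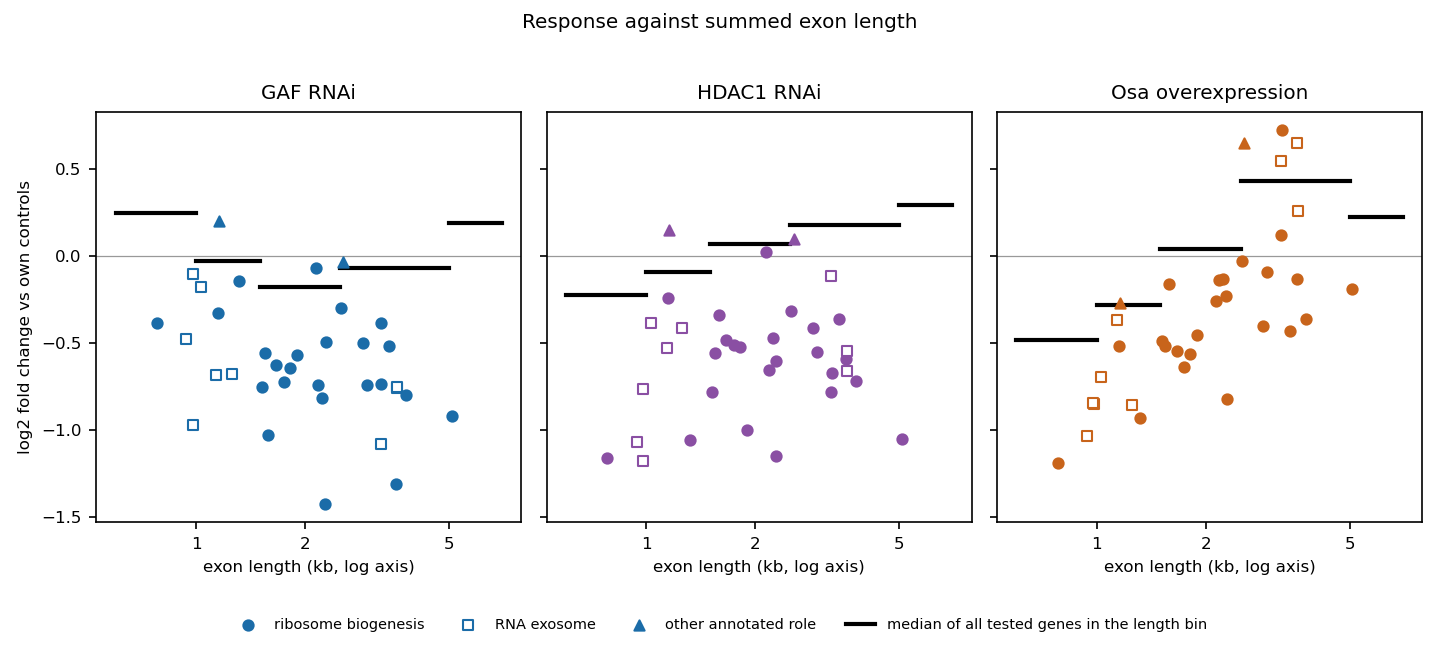
Log2 fold change of the 35 members (points; circles for ribosome biogenesis, open squares for exosome, triangles for other roles) against summed exon length in kb on a log axis, in 3 experiments, with black bars for the median of all tested genes of that length. Under Osa overexpression the members' medians run from −0.94 under 1 kb to 0.05 between 2.5 and 5 kb. In GAF RNAi the members from 1.5 to 5 kb have medians of −0.69 and −0.74, where all genes have −0.18 and −0.07.

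The responses were compared between experiments as contrasts in 1 fit of all 14 libraries and 11181 genes. Non1 was the single member that differed: its GAF RNAi response was lower than its Osa overexpression response by a log2 difference of −1.21 ± 0.3 (edgeR adjusted p = 0.0414). In this contrast 1.19% of all genes were lower and 1.68% higher. At an unadjusted p under 0.05, 9 members were lower and 2 higher, and the share of all genes at that threshold was not computed for any contrast. DESeq2 called 4 lower, Non1, RpI135, Rrp6 and Mtr4, and 1 higher, Ski6, where it called 4.37% of all genes lower and 6.42% higher. Of the members limma-voom called Non1 alone, where it called 1.21% of all genes lower and 1.78% higher. The Non1 difference ran from −1.48 to −0.97 over 17 other settings, with adjusted p from 0.0061 to 0.248, and its call was lost in 11 of them. Between GAF RNAi and HDAC1 RNAi 0 members differed by edgeR, against 2.11% of all genes lower and 1.09% higher. At an unadjusted p under 0.05, 2 members stood in each direction. DESeq2 and limma-voom each called 1 member higher, where they called 3.25% and 1.4% of all genes higher. Ski6, with −0.1 in GAF RNAi and −1.18 in HDAC1 RNAi, came nearest (0.97 ± 0.25, edgeR adjusted p = 0.0509). Between HDAC1 RNAi and Osa overexpression 0 members differed (0 at an unadjusted p under 0.05, and 0 by DESeq2 and limma-voom), against 0.00894% of all genes lower and 0% higher. In edgeR the differences of RpI135 and Rrp6 did not pass: RpI135 stood at −1.31 in GAF RNAi and −0.13 under Osa overexpression (difference −1.19 ± 0.38, edgeR adjusted p = 0.0977), and Rrp6 at −1.08 in GAF RNAi and 0.54 under Osa overexpression (−1.64 ± 0.55, edgeR adjusted p = 0.108). Both passed by DESeq2, without a filter and without GAF control replicate 1, and over all settings the adjusted p ran from 0.0297 to 0.35 for RpI135 and from 0.0265 to 0.41 for Rrp6.

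Across the 3 experiments, 27 of the 35 members had a negative value in each, where 19.3% of the 8337 genes tested in all 3 did. Genes called lower in both GAF RNAi and Osa overexpression, which share no libraries, were 10: Nop56, nop5, Nop60B, NHP2, mod, nclb, wcd, Csl4, Rrp42 and Mtr3. They are 40% of the members lower in GAF RNAi and 71.4% of those lower under Osa overexpression. Both shares equal those among all 35 members, of which 14 were lower under Osa overexpression and 25 in GAF RNAi. The overlap was thus no larger than unrelated calls among the members would give. Across the 35, the GAF and Osa responses correlated at −0.206 (Pearson) and −0.325 (Spearman), against a Pearson value of 0.168 over 8482 genes. Over all genes tested in both, 334 were lower in both, which is 23.4% of those lower in GAF RNAi and 30.2% of those lower under Osa overexpression. In each RNAi or overexpression library the median over the 24 ribosome biogenesis members lay below every control of its experiment: at −0.59, −0.62 and −0.65 in GAF RNAi against −0.19, 0.05 and 0.13 in controls, at −0.65 and −0.64 in HDAC1 RNAi against −0.11 and 0.11, and at −0.37 and −0.44 under Osa overexpression against 0.04 and −0.04, all in log2(CPM + 1) relative to the control mean. The exosome median was at −0.72, −0.52 and −0.73 in GAF RNAi, at −1.11 and −0.52 in HDAC1 RNAi and at −0.68 and −0.59 under Osa overexpression.

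**Figure D4:**
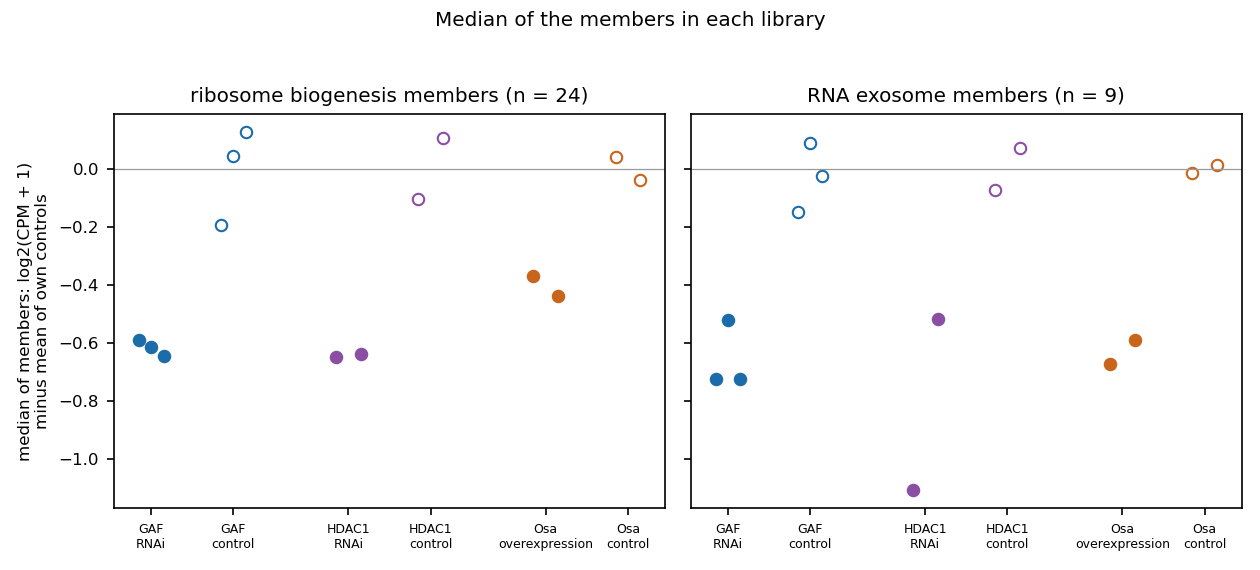
Median over 24 ribosome biogenesis members (left) and 9 exosome members (right) of log2(CPM + 1) minus the mean of the experiment's own controls, 1 point per library, filled for RNAi or overexpression and open for controls. In all 3 experiments the filled points lie below the open ones, and the exosome medians of the HDAC1 RNAi libraries are the furthest apart (−1.11 and −0.52).

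Other genes of the same pathways were counted from lists. Of 43 further ribosome biogenesis genes with a row, 30 fell and 0 rose in GAF RNAi (median −0.6), 0 were called in HDAC1 RNAi (median −0.64), and 24 fell and 0 rose under Osa overexpression (median −0.56). In GAF RNAi the smallest p-values belonged to RpL24-like, a large-subunit assembly factor (121 against 245 CPM on average, −1.02 ± 0.11), CG4364 (−1.2 ± 0.13), CG1234 (−0.9 ± 0.12) and Tsr1, a small-subunit factor (−1.28 ± 0.17). Under Osa overexpression they belonged to hoip, which binds box C/D and spliceosomal RNA (188 against 466 CPM, −1.31 ± 0.16), CG7006 (−1.17 ± 0.15), CG11920 (−1.08 ± 0.15) and RpL24-like (−1 ± 0.15). Of 11 further exosome subunits, cofactors and RNA exonucleases, 4 fell in GAF RNAi, among them the ring genes Rrp45 (−0.72 ± 0.17) and Rrp46 (−0.48 ± 0.12), and the poly(A) polymerase gene Trf4-2 rose (4.78 against 1.67 CPM). Under Osa overexpression 3 of the 11 fell, namely Rrp46 (−0.79 ± 0.15) and the nuclear cofactors Mpp6 (−1.04 ± 0.2) and Rrp47 (−0.81 ± 0.16), and tst, the homolog of the yeast helicase Ski2, rose (1.01 ± 0.28). In HDAC1 RNAi 0 of the 11 were called. The gene viriato (vito), which encodes the fly Nol12 protein, has a row under that name. It was looked up once Nol12 was found to have no row, and stood at 34.2, 33.3 and 34.4 CPM in GAF RNAi against 43.1, 47.3 and 41.9 CPM (−0.38 ± 0.14, edgeR adjusted p = 0.0548), and at 61.1 and 64.5 CPM under Osa overexpression against 81.9 and 99 CPM (−0.53 ± 0.16, edgeR adjusted p = 0.045).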

How the data were processed

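The authors deposited raw whole-number counts of genes in 14 libraries of 1k to 2k cells each, with RNA amplified by a whole-transcriptome kit and libraries made by a transposase kit that does not mark strand, per the labels' protocols. The submitters' processing notes name featureCounts 2.0.3, SAMtools 1.6, HISAT2 2.2.1, Trim Galore 0.6.10 and the dm6 genome. The counting annotation and the treatment of shared reads were not given in the sources used here. Exon lengths and overlaps came from the BDGP6 annotation of Ensembl. RpI1 and RpI135 were matched there by older names.

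Counts as deposited were filtered (edgeR, minimum count 10, minimum total 15), scaled by TMM and tested per experiment with robust quasi-likelihood fits (edgeR 4.0.16, R 4.3.3). Benjamini-Hochberg adjustment was over all genes tested. An SE is the size of the log2 change over the root of its F statistic. RPKM are TMM-normalised CPM per kilobase of summed exon. Alternatives were RLE factors, library size only, no filter, DESeq2 1.42.0, limma-voom (limma 3.58.1), a replicate block, 1 fit of all 14 libraries, each library left out and, added after the data were seen, a per-gene length offset (loess span 0.5). Code was tested on simulated data. No 2 replicates were alike within sampling noise (median chi-square per gene 7.52 to 132).

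The members and lists were chosen with earlier results of these data known. Per-library values are given for most called members, with log2 fold changes for the rest, and for at least 1 member of each role. Of other pathway genes, up to 4 called ones with the smallest p are given. Of the list entries, 2 had no row. Exons of 20 members overlap no other gene, and 5 members share 5% or more. Promoter and protein sequences were not used here. At this depth replicate spread, not counting error, sets the precision.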

Additional observations from a re-analysis of the deposited data

Results flagged for a closer look

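Non1 was flagged because its response differed between experiments in a test of the difference itself. The GAF RNAi response minus the Osa overexpression response was −1.21 on the log2 scale (edgeR adjusted p = 0.0414, and 0.0061 to 0.248 over 17 other settings). Non1 was lower in 3 of 3 GAF RNAi libraries than in every GAF control, at 203 to 218 CPM against 511 to 592 CPM. Under Osa overexpression it stood at 726 and 545 CPM against 787 and 706 CPM. The GAF and Osa experiments share no libraries, and the experiment and its library set cannot be told apart. No group held enough libraries for a search for outlying libraries.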

How the results depend on the processing

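Of 3045 values of single members under alternatives, 2830 kept their call, 158 of these not called and of opposite sign, and 4 reversed. The lower count in GAF RNAi was 13 with all 14 libraries in 1 fit and 18 to 28 with 1 library left out, with 0 higher throughout. Over all genes the lower share was 6.77% with all 14 libraries and 9.88% to 20.5% with 1 library left out. In HDAC1 RNAi 1 was lower with all 14 libraries, where 1.14% of all genes were lower and 1.94% higher. With 1 HDAC1 library left out, 1 remains in its group, and the members' median ran from −0.635 to −0.448. Under Osa overexpression the counts lower and higher were 5 and 3 with library size only, 8 and 0 with the length offset and 2 and 0 with all 14 libraries. Over all genes the shares lower and higher were 5.88% and 21.4%, 5.85% and 2.57%, and 2.73% and 0.438% in these settings. The higher count was 4 without a filter and 2 by DESeq2, and leaving out 1 library gave 4 to 19 lower and 0 to 6 higher.

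For GAF RNAi minus HDAC1 RNAi, 1 member was higher with RLE factors, DESeq2 or limma-voom, with 1.26%, 3.25% and 1.4% of all genes higher. Without a filter 1 was lower, with 2.11% of all genes lower. Leaving out 1 GAF library gave 0 members in either direction, against 0.663% to 1.3% of all genes higher and 1.24% to 2.13% lower. Without 1 HDAC1 library, 1 remains in its group, and the members' median difference ran from −0.276 to −0.117. For GAF RNAi minus Osa overexpression, 0 were lower with RLE factors or the replicate block, with 1.27% and 1.17% of all genes lower. Without a filter 4 were lower, with 2.17% of all genes lower. DESeq2 called 4 lower and 1 higher, with 4.37% and 6.42% of all genes. Leaving out 1 GAF library gave 0 to 2 lower and 0 higher, against 0.806% to 1.75% and 0.917% to 2.28% of all genes. Without 1 Osa library, 1 remains in its group, and the members' median difference ran from −0.256 to −0.172. For HDAC1 RNAi minus Osa overexpression, leaving out 1 library leaves 1 in its group, and the members' median difference ran from −0.212 to 0.068. The cause was not tested for any of these.

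The 4 reversals came from leaving out 1 HDAC1 RNAi library. With 1 library left out, Tif-IA ran from −1.244 to 0.699 in HDAC1 RNAi, from −1.01 to 1.19 in GAF RNAi minus HDAC1 RNAi and from −1.01 to 1.19 in HDAC1 RNAi minus Osa overexpression, and Surf6 from −0.73 to 0.77 in GAF RNAi minus HDAC1 RNAi. Deviations from the group mean in same-numbered libraries correlated at 0.001, −0.087 and −0.193 in the GAF experiment, where different numbers gave −0.068 to 0.149. Same-numbered deviations correlated at 0.151 in the HDAC1 experiment and 0.008 in the Osa experiment. With 2 libraries per group the deviations mirror each other, so these values cannot show whether replicate numbers pair the samples. With the replicate block 24 members were lower in GAF RNAi, 0 in HDAC1 RNAi and 13 under Osa overexpression, where 1 was higher. Over all genes the block gave 14.2% lower and 11.7% higher in GAF RNAi and 11.3% and 8.62% under Osa overexpression. In HDAC1 RNAi it gave 1.28% lower and 1.06% higher, against 0.0971% and 0% without the block. With a group of 2 reduced to 1 library, that library is assumed to vary like the other groups.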
